A study of Mus musculus with 14 samples.

Results

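The genes described here are 33 enzymes, regulators and transporters of cholesterol and fatty acid metabolism, taken by symbol from the 25017 gene rows of a count table of mouse CD4+ T cells. They comprise 7 genes of the mevalonate steps, 11 of the sterol branch, 4 sterol regulators and carriers, 3 of fatty acid synthesis, 6 desaturases and elongases and 2 cholesterol exporters. The cells came from transplanted mice that modelled chronic graft-versus-host disease (cGVHD), in which donor T cells attack the tissues of the recipient. Recipients of the BALB/c strain received B6 (C57BL/6) bone marrow depleted of T cells, together with B6 splenocytes for cGVHD or without them for GVHD-free animals, and spleen, liver and lung were taken at day 30. All 7 groups therefore carry the same strain combination and the same marrow graft, and the GVHD-free cells arose without transferred splenocytes (no age is given). From the donor-derived CD4+ T cells, a fraction low (PSGL1lo) and a fraction high (PSGL1hi) in PSGL1, the surface ligand of P-selectin whose gene is Selplg, were sorted. The 7 groups of 2 libraries were PSGL1lo cells from GVHD-free spleen, and PSGL1lo and PSGL1hi cells from spleen, liver and lung of cGVHD recipients. The labels do not say that the libraries of a group came from separate mice, so the spread behind the p-values is that between these libraries and may be technical.

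The libraries held 13222005 to 33532595 counts. Values are CPM, counts relative to the library total scaled for composition, which compare 1 gene across libraries but not different genes with each other. Of the 33 genes, 32 passed the filter on low counts together with 13780 genes in all. A change is on the log2 scale with its standard error (SE), and "rose", "fell" and "passed" are used only where the p-value of edgeR's quasi-likelihood test, adjusted by Benjamini-Hochberg over the 13780 genes, was under 0.05. Cd4 had group means of 1530 to 2630 CPM. Selplg itself had means of 259 CPM (PSGL1lo) and 503 CPM (PSGL1hi) in cGVHD spleen. In liver they were 576 and 923 CPM, and in lung 420 and 960 CPM. The mRNA thus followed the sort within each cGVHD tissue, but liver PSGL1lo cells lay above spleen PSGL1hi cells. The GVHD-free spleen PSGL1lo group had a Selplg mean of 153 CPM. The CD8 genes Cd8a and Cd8b1, which a CD4 sort should lack, summed to 12.1 CPM (PSGL1lo) and 77.6 CPM (PSGL1hi) in cGVHD spleen, 29.7 and 141 CPM in liver, and 12.2 and 29.6 CPM in lung.

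As background, cells build cholesterol from acetyl-CoA through mevalonate, farnesyl diphosphate, squalene and lanosterol, and the same farnesyl diphosphate feeds protein prenylation. When sterols in the endoplasmic reticulum run low, the transcription factors SREBP2 (Srebf2) and SREBP1 (Srebf1) are released from the retention protein Insig1 and switch on synthesis genes, usually together with the factor NF-Y. When oxysterols accumulate, liver X receptors switch on the exporters Abca1 and Abcg1. Dividing T cells are known to raise sterol and fatty acid synthesis to make membrane, and to lower cholesterol export.

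The promoter sequences of genes that moved together below are shown to let the letters be read beside the levels. A RefSeq table of promoters (build GRCm38.p6, 250 bases before to 50 after the start site, 32851 promoters) held 30 promoters of 25 of the 33 genes. The NF-Y box, searched as CCAAT on both strands, was found in 21 of these 30 promoters (70%, 20 genes) and in 37.4% of all promoters in the table. The sterol regulatory element, searched as TCACNCCAC on both strands, was found in 1 of the 30 (3.33%, Hmgcs1) and in 1.24% of all promoters. A match describes letters only. The 250 bases upstream of the start site are printed 5′ to 3′ on the gene's strand for 3 sterol enzymes that were lower in PSGL1lo cells and for the exporter Abca1, which was higher, with each CCAAT box or its reverse complement ATTGG in capitals.
Lss (chr10:76531355-76531604, plus strand): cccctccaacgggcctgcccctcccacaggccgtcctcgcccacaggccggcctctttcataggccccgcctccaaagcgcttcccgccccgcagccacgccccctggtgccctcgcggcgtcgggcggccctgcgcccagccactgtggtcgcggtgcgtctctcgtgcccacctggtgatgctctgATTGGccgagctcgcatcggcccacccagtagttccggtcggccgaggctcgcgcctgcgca
Cyp51 (chr5:4104698-4104947, minus strand): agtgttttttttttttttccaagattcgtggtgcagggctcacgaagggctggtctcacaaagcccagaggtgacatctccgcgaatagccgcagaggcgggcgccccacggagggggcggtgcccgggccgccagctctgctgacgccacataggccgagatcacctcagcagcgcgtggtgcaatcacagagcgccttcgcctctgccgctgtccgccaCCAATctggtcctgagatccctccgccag
Hsd17b7 (chr1:169969206-169969455, minus strand): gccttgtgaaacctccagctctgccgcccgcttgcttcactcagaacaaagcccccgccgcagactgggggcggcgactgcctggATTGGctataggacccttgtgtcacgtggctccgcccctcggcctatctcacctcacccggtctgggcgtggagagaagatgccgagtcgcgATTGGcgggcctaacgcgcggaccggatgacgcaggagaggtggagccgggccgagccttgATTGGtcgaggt
Abca1 (chr4:53159896-53160145, minus strand): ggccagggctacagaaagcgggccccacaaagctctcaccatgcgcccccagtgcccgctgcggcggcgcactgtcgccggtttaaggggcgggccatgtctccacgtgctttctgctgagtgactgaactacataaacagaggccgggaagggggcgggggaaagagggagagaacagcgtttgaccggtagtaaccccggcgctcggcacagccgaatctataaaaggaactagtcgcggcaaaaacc
Lss and Cyp51 had 1 box each, Hsd17b7 had 3, and the printed stretch of Abca1 had none. The promoter of Acat2, which was also lower in PSGL1lo cells of all 3 tissues, had 0 boxes. Among genes that did not pass between the fractions in any tissue, Mvk had 5 boxes, Fasn 3 and Idi1 2. Acaca and Elovl6, which also did not pass, had 0.

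PSGL1lo and PSGL1hi cells of the same cGVHD tissue were compared to ask how the fractions differ. In PSGL1lo cells of all 3 tissues the sterol enzymes Acat2, Mvd, Sqle, Lss, Cyp51, Hsd17b7 and Sc5d were lower, and the exporters Abca1 and Abcg1 and the desaturase Scd2 were higher. These 7 lower genes are 21.9% of the 32 tested, against 6.25% of all genes tested that were lower in every tissue, and the 3 higher genes are 9.38%, against 3.77%. Within single tissues, 3 rose and 11 fell in spleen, where 15.8% of all genes rose and 16.7% fell; 3 rose and 12 fell in liver, against 8.50% and 12.3%; and 3 rose and 14 fell in lung, against 12.9% and 20.1%. The median log2 change of the 32 genes was -0.21 in spleen, -0.20 in liver and -0.31 in lung, beside 0.00, -0.02 and -0.03 for all genes. With 1 library left out, the count of genes lower in all 3 tissues came to 4 without the PSGL1lo replicate 1 of spleen or of lung, and to 3 without either PSGL1hi library of liver. The count higher in all 3 fell from 3 to 1, leaving Abca1, without the PSGL1hi replicate 1 of liver. In liver alone, the 15 genes that passed came to 9 without that library.

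**Figure D1:**
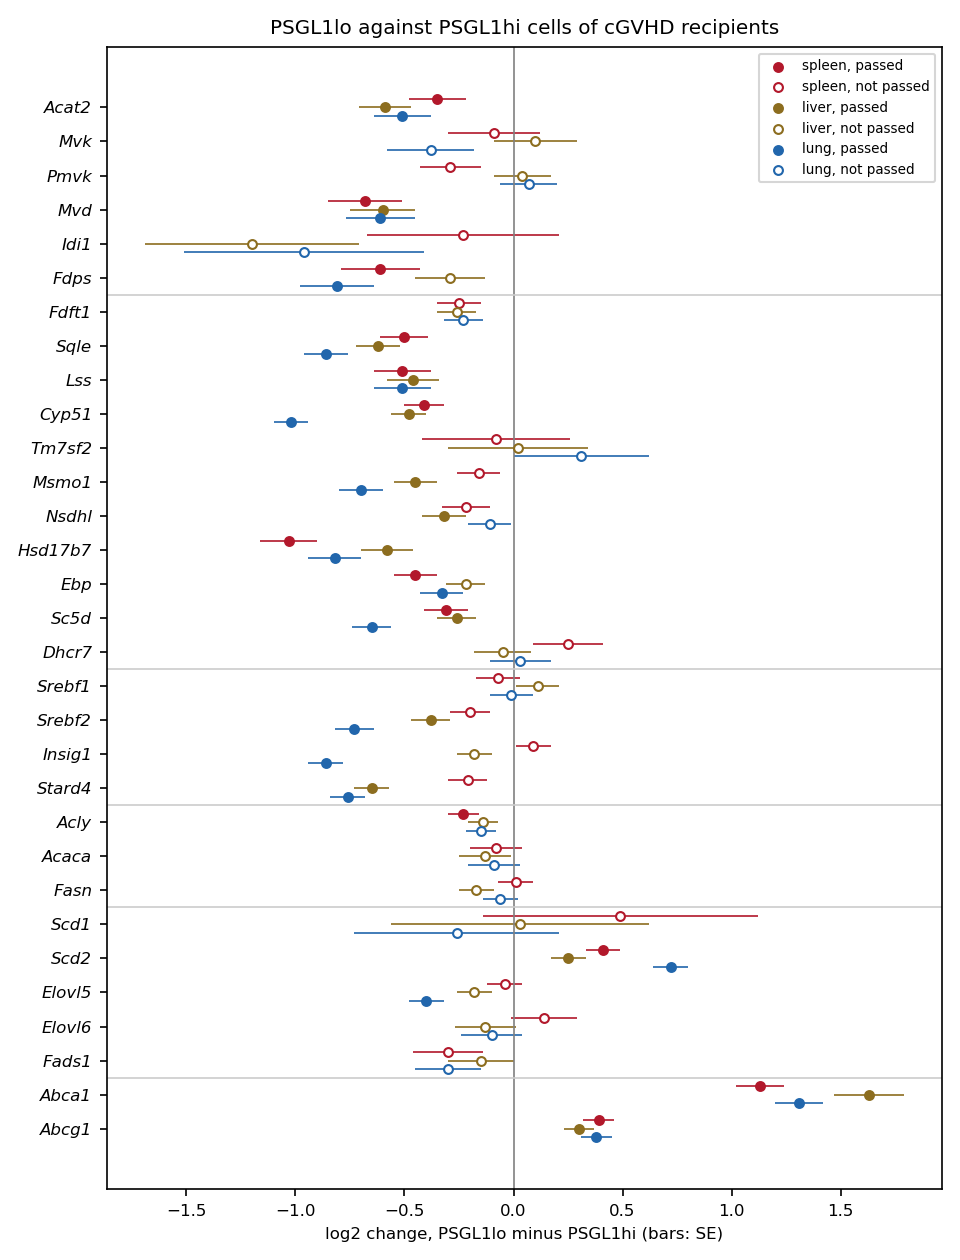
Log2 change between PSGL1lo and PSGL1hi cells (x axis) for 31 tested genes (y axis, grouped by role from mevalonate steps at the top to exporters at the bottom) in spleen, liver and lung of cGVHD recipients, with bars for the SE; filled points passed the test, and Fads2 is left out because both libraries of 1 group were listed at 0. Most sterol enzymes lie left of 0, Srebf1, Acaca and Fasn lie near 0, and Scd2, Abca1 and Abcg1 lie right of 0 in all 3 tissues.

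Proliferation moved with the sterol genes. The 18 proliferation markers summed to 2570 CPM (PSGL1lo) and 5270 CPM (PSGL1hi) in spleen, 1660 and 2420 CPM in liver, and 1000 and 2140 CPM in lung, and 18, 17 and 17 of the 18 fell in PSGL1lo cells of the 3 tissues. The 11 sterol branch enzymes summed to 279 and 360 CPM in spleen, 383 and 485 CPM in liver, and 352 and 508 CPM in lung. The orders of the tissues differ between these sums: proliferation was highest in spleen, and the sterol branch was lowest there. In these orders spleen cannot be told apart from its own series of library numbers, which liver and lung libraries do not share. The part of proliferation, and of the CD8 genes given above, in the sterol differences was not tested. In such bulk samples, fewer cells of a type and less RNA per cell cannot be told apart.

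**Figure D2:**
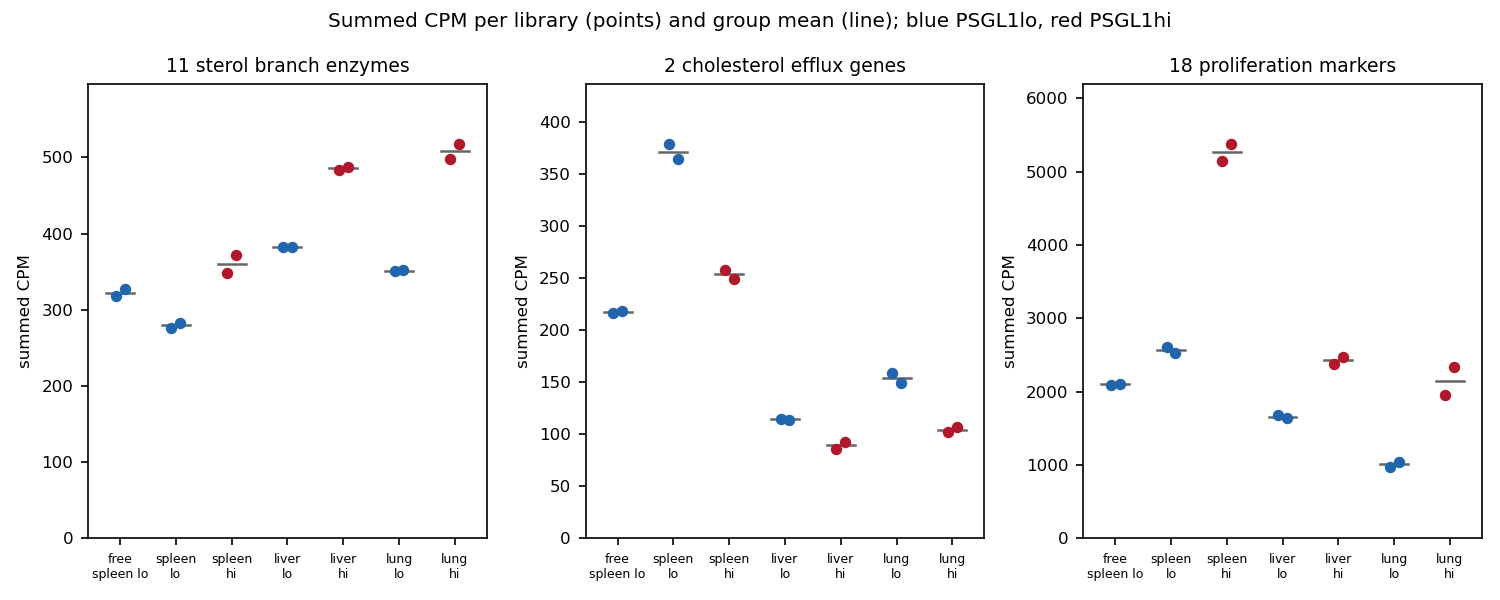
Summed CPM (y axis, linear from 0) of the sterol branch enzymes, the exporters and the proliferation markers in each library (points) of the 7 groups (x axis; "free" is GVHD-free, the rest cGVHD), with the group mean as a line. The sterol branch is higher in PSGL1hi than in PSGL1lo libraries of each tissue, the exporters are lower, and the proliferation markers are highest in PSGL1hi cells of spleen, at 5150 and 5380 CPM.

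The mevalonate steps, which turn acetyl-CoA units into farnesyl diphosphate, were lower in PSGL1lo cells or did not pass. Of 6 tested genes, 3 fell in spleen, 2 in liver and 3 in lung, and none rose. These shares of 50%, 33.3% and 50% stood beside 16.7%, 12.3% and 20.1% of all genes that fell. Mvd, the mevalonate diphosphate decarboxylase, had 8.49 and 7.65 CPM in PSGL1lo against 13.6 and 12.3 CPM in PSGL1hi libraries of spleen, 12.4 and 11 against 17.8 and 17.8 CPM in liver, and 7.63 and 11 against 13.9 and 14.4 CPM in lung. The fractions did not overlap in any tissue, and the log2 changes were -0.68 ± 0.17, -0.60 ± 0.15 and -0.61 ± 0.16 (adjusted p = 0.0042, 0.0071 and 0.0057). The Mvd calls are not firm: adjusted p was 0.053 in spleen without PSGL1lo replicate 2, 0.050 and 0.052 in liver without PSGL1hi replicate 1 or 2, and 0.13 in lung without PSGL1lo replicate 1. Fdps, the synthase of farnesyl diphosphate, had 5.21 and 5.95 against 8.56 and 8.51 CPM in spleen, 9.28 and 8.42 against 10.2 and 11.4 CPM in liver, and 5.13 and 5.18 against 10 and 8.07 CPM in lung. It fell in PSGL1lo cells of spleen (-0.61 ± 0.18, adjusted p = 0.013) and lung (-0.81 ± 0.17, adjusted p = 0.00087) and did not pass in liver (-0.29 ± 0.16, adjusted p = 0.22); the spleen call was lost without PSGL1lo replicate 1 (adjusted p = 0.11) or PSGL1hi replicate 2 (0.052). Acat2, the cytosolic thiolase that joins acetyl-CoA units, fell by 0.35, 0.59 and 0.51 on the log2 scale in spleen, liver and lung, and lost its spleen call without any 1 of the 4 spleen libraries of cGVHD (adjusted p = 0.081 to 0.17). With all libraries, the Acat2 spleen call was also lost with upper-quartile scaling (0.069), without the filter on low counts (0.065) and by DESeq2's Wald test (0.078), so its place among the 7 genes lower in every tissue is not firm.

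The kinases of the same route did not pass in any tissue. Mvk, mevalonate kinase, had 6.63 and 7.65 against 7.77 and 7.48 CPM in spleen, 13.1 and 8.47 against 10.3 and 10 CPM in liver, and 7.72 and 5.58 against 8.21 and 9.05 CPM in lung, with adjusted p = 0.78, 0.76 and 0.16; its lung PSGL1lo libraries lay below the PSGL1hi libraries. Pmvk, phosphomevalonate kinase, ranged from 13.6 to 19.3 CPM over the 12 cGVHD libraries, and its fractions differed by -0.29 ± 0.14, 0.04 ± 0.13 and 0.07 ± 0.13 in the 3 tissues, none past the test; in spleen its PSGL1lo libraries (13.6 and 17.7 CPM) lay below the PSGL1hi libraries (19.1 and 19.3 CPM). Idi1, the isomerase of isopentenyl diphosphate, was low in every library (0.254 to 2.08 CPM) and did not pass between the fractions. Its PSGL1lo libraries lay below the PSGL1hi libraries in liver (0.372 and 0.421 against 0.764 and 1.05 CPM) and lung (0.254 and 0.357 against 0.735 and 0.47 CPM). In spleen the fractions overlapped. Hmgcs1, the HMG-CoA synthase, was listed at 0 in 12 of 14 libraries and at 1 count in the other 2, and was the only gene of the 33 that failed the filter.

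In the sterol branch, from squalene to cholesterol, 6 of 11 genes were lower in PSGL1lo cells of spleen, 7 in liver and 7 in lung, with none higher. These shares of 54.5%, 63.6% and 63.6% stood beside 16.7%, 12.3% and 20.1% of all genes that fell. The branch is the longest of the role lists, and in lung the share of the regulators that fell was larger, at 75%. Sqle, squalene epoxidase, which makes the epoxide that is closed into the sterol rings, had 17.2 and 16.4 CPM in PSGL1lo against 24.0 and 23.5 CPM in PSGL1hi libraries of spleen. The values were 32.2 and 31.1 against 49.6 and 47.8 CPM in liver and 23.4 and 26.7 against 42.9 and 48.3 CPM in lung. The fractions stood apart in each tissue, by 1.41-fold, 1.54-fold and 1.82-fold lower levels in PSGL1lo cells (log2 -0.50 ± 0.11, -0.62 ± 0.10 and -0.86 ± 0.10; adjusted p = 0.0014, 6.5e-05 and 5.7e-07). Cyp51, the lanosterol demethylase, had 48.5 and 49.7 against 60.7 and 69.8 CPM in spleen, 49.1 and 51.3 against 69.9 and 70.0 CPM in liver, and 49.5 and 44 against 95.1 and 94.3 CPM in lung. Its 6 PSGL1lo libraries lay within 44 and 51.3 CPM whatever the tissue, while the 2 lung PSGL1hi libraries exceeded all other cGVHD libraries. The differences were -0.41 ± 0.09, -0.48 ± 0.08 and -1.02 ± 0.08 (adjusted p = 0.00095, 0.00023 and 4.7e-09).

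Hsd17b7, the sterol keto reductase, had 11 and 12.0 against 23.3 and 23.7 CPM in spleen, 19.0 and 23.2 against 30.6 and 32.3 CPM in liver, and 22.1 and 20.4 against 40 and 35.0 CPM in lung. It was 2.04-fold, 1.5-fold and 1.77-fold lower in PSGL1lo cells (log2 -1.03 ± 0.13, -0.58 ± 0.12 and -0.82 ± 0.12; adjusted p = 3.3e-06, 0.0008 and 8.9e-06), the widest spleen difference in the branch. Lss, lanosterol synthase, which closes the rings, fell by 0.51, 0.46 and 0.51 on the log2 scale. Each Lss call was lost with single libraries left out: in spleen without PSGL1lo replicate 1 or PSGL1hi replicate 2 (adjusted p = 0.064 and 0.071), in liver without PSGL1lo replicate 1 or either PSGL1hi library (0.10, 0.051 and 0.066), and in lung without PSGL1lo replicate 1 or PSGL1hi replicate 2 (0.076 and 0.069). Sc5d, the sterol desaturase, fell by 0.65 in lung, by 0.31 in spleen and by 0.26 in liver; the spleen call was lost without PSGL1lo replicate 1 (adjusted p = 0.27) or PSGL1hi replicate 2 (0.091), and the liver call without any 1 of the 4 liver libraries (0.072 to 0.34) and under several of the other settings.

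Msmo1, the methylsterol oxidase, fell in liver (-0.45 ± 0.10) and lung (-0.70 ± 0.10) and did not pass in spleen (-0.16 ± 0.10, adjusted p = 0.27). Ebp, the sterol isomerase, fell in spleen (-0.45 ± 0.10) and in lung (-0.33 ± 0.10), the latter with adjusted p = 0.067, 0.071 and 0.082 without PSGL1lo replicate 1 or 2 or PSGL1hi replicate 2 of lung. Nsdhl, the sterol dehydrogenase, passed in liver alone (-0.32 ± 0.10, adjusted p = 0.024), and not without PSGL1lo replicate 1 (0.15) or PSGL1hi replicate 1 or 2 (0.065 and 0.21) of liver. Fdft1, squalene synthase, which commits farnesyl diphosphate to sterols, differed by -0.25 ± 0.10, -0.26 ± 0.09 and -0.23 ± 0.09 (adjusted p = 0.073, 0.052 and 0.061), with no overlap between fractions. Dhcr7, which completes cholesterol, differed by 0.25 ± 0.16, -0.05 ± 0.13 and 0.03 ± 0.14, and Tm7sf2, a sterol reductase with 1.69 to 3.18 CPM over the cGVHD libraries, by -0.08 ± 0.34, 0.02 ± 0.32 and 0.31 ± 0.31; their fractions overlapped in every tissue.

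**Figure D3:**
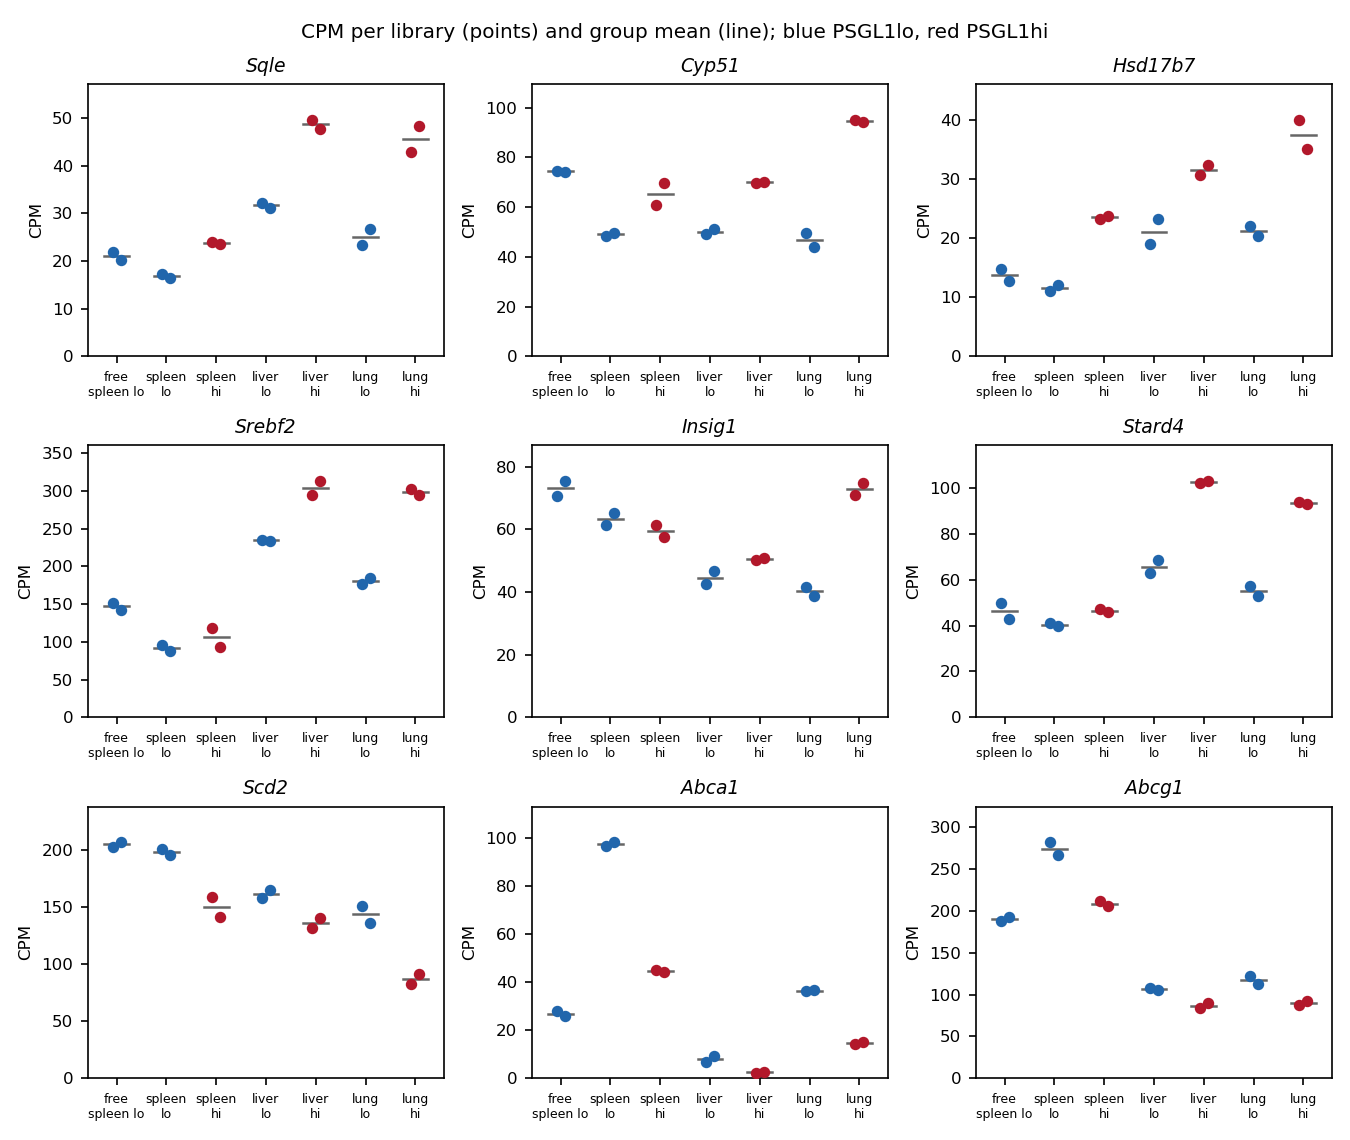
CPM of 9 genes (y axes, linear from 0) in each library (points) of the 7 groups (x axes; "free" is GVHD-free, the rest cGVHD), with the group mean as a line. Sqle, Cyp51 and Hsd17b7 are higher in PSGL1hi libraries of every tissue, Insig1 is raised in lung PSGL1hi libraries (71.1 and 74.8 CPM), and Abca1 falls to 2.20 and 2.79 CPM in liver PSGL1hi libraries.

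The regulators differed by tissue. Srebf2, the gene of SREBP2, had 95.8 and 88.2 CPM in PSGL1lo against 118 and 93.4 CPM in PSGL1hi libraries of spleen, which overlap. It had 235 and 234 against 295 and 313 CPM in liver and 177 and 184 against 303 and 295 CPM in lung, where the fractions stood apart. The log2 differences were -0.20 ± 0.09 (adjusted p = 0.094), -0.38 ± 0.09 (0.0027) and -0.73 ± 0.09 (7.9e-07). Insig1, which retains SREBP in the endoplasmic reticulum and is itself a SREBP target, had 61.5 and 65.2 against 61.3 and 57.5 CPM in spleen, 42.5 and 46.7 against 50.2 and 50.9 CPM in liver, and 41.6 and 38.9 against 71.1 and 74.8 CPM in lung. It was 1.81-fold lower in PSGL1lo cells of lung (log2 -0.86 ± 0.08, adjusted p = 6.1e-08), and did not pass in spleen (0.09 ± 0.08, 95% interval -0.08 to 0.27) or liver (-0.18 ± 0.08, interval -0.36 to -0.01).

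Stard4, a cytosolic sterol carrier, had 40.9 and 39.7 against 47 and 45.9 CPM in spleen, 62.9 and 68.4 against 102 and 103 CPM in liver, and 57.3 and 53.0 against 93.8 and 93.1 CPM in lung. It fell in PSGL1lo cells of liver (-0.65 ± 0.08, adjusted p = 5.9e-06) and lung (-0.76 ± 0.08, adjusted p = 3e-07), and missed the threshold in spleen (-0.21 ± 0.09, adjusted p = 0.084). Srebf1, the gene of SREBP1, had 131 and 113 against 140 and 116 CPM in spleen, 132 and 113 against 113 and 115 CPM in liver, and 103 and 99.0 against 99.8 and 104 CPM in lung. Its fractions overlapped in every tissue, with 95% intervals of -0.27 to 0.13, -0.09 to 0.30 and -0.21 to 0.19 for the log2 difference.

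The fatty acid synthesis genes showed little difference between the fractions. Acly, ATP citrate lyase, which makes cytosolic acetyl-CoA, had 367 and 353 against 431 and 413 CPM in spleen, 402 and 395 against 434 and 446 CPM in liver, and 387 and 419 against 422 and 470 CPM in lung. It fell in PSGL1lo cells of spleen only among these tests (-0.23 ± 0.07, adjusted p = 0.013), and not without PSGL1lo replicate 2 (0.087) or PSGL1hi replicate 1 (0.067) of spleen; the liver and lung differences were -0.14 ± 0.07 and -0.15 ± 0.07. Fasn, fatty acid synthase, had 290 and 242 against 284 and 246 CPM in spleen, 202 and 206 against 223 and 235 CPM in liver, and 134 and 131 against 138 and 138 CPM in lung, with 95% intervals of -0.16 to 0.18, -0.34 to 0.00 and -0.23 to 0.12. Acaca, acetyl-CoA carboxylase, had 29.6 and 26.3 against 29.6 and 29.4 CPM, 21.4 and 20.6 against 21.2 and 24.9 CPM, and 21.1 and 16.4 against 19.5 and 20.5 CPM in the same order. None of its differences passed (adjusted p = 0.66, 0.47 and 0.61).

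Among the desaturases and elongases, Scd2 went the other way from the sterol enzymes. Scd2, a stearoyl-CoA desaturase that makes monounsaturated fatty acids, had 201 and 196 CPM in PSGL1lo against 159 and 141 CPM in PSGL1hi libraries of spleen, 158 and 165 against 132 and 140 CPM in liver, and 151 and 136 against 82.9 and 91.3 CPM in lung. It was 1.33-fold, 1.19-fold and 1.65-fold higher in PSGL1lo cells (log2 0.41 ± 0.08, 0.25 ± 0.08 and 0.72 ± 0.08; adjusted p = 0.00043, 0.028 and 3.5e-07); the liver call was lost without PSGL1lo replicate 2 (0.079) or PSGL1hi replicate 1 or 2 (0.24 and 0.075) of liver. Its near copy Scd1 had 0.253 to 2.37 CPM over the cGVHD libraries, and no fraction difference passed. Because the copies share sequence, how reads were split between Scd1 and Scd2 is uncertain.

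Fads2, a desaturase of polyunsaturated fatty acids, was near the limit of counting: its counts were 1 and 5 in PSGL1lo against 45 and 42 in PSGL1hi libraries of spleen, 0 and 0 against 7 and 15 in liver, and 13 and 18 against 14 and 23 in lung. It fell in PSGL1lo cells of spleen and liver (adjusted p = 0.00068 and 0.0013) and did not pass in lung (0.85). In liver it was at least 4.04-fold lower in PSGL1lo cells, with 3 counts per library taken in place of 0. Elovl6, an elongase, had 13.9 and 16.4 against 13.7 and 13.9 CPM in spleen, 13.3 and 17.1 against 17.1 and 16.2 CPM in liver, and 12.6 and 14.7 against 14.7 and 14.7 CPM in lung, with no difference past the test. Elovl5, an elongase of polyunsaturated fatty acids, passed in lung (-0.40 ± 0.08, adjusted p = 0.00035) and not in spleen (-0.04 ± 0.08) or liver (-0.18 ± 0.08), and Fads1 passed in none.

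The exporters were higher in PSGL1lo cells of every tissue. Abca1, which moves cholesterol to lipid-poor apolipoproteins, had 96.9 and 98.5 CPM in PSGL1lo against 45.1 and 44.2 CPM in PSGL1hi libraries of spleen, 6.79 and 9.10 against 2.20 and 2.79 CPM in liver, and 36.4 and 36.7 against 14.4 and 15.0 CPM in lung. The fractions were separate in each tissue, 2.19-fold, 3.11-fold and 2.48-fold apart (log2 1.13 ± 0.11, 1.63 ± 0.16 and 1.31 ± 0.11; adjusted p = 4.2e-08, 1.4e-07 and 1e-08). Abcg1, which moves cholesterol to high-density lipoprotein, had 282 and 266 against 212 and 205 CPM, 108 and 105 against 84.0 and 89.4 CPM, and 122 and 112 against 87.2 and 92.3 CPM. It was 1.31-fold, 1.23-fold and 1.31-fold higher (log2 0.39 ± 0.07, 0.30 ± 0.07 and 0.38 ± 0.07; adjusted p = 0.00021, 0.0052 and 3e-04), and the liver call was lost without PSGL1hi replicate 1 of liver (0.098). Macrophages also express both exporters. The summed level of 14 myeloid markers was lower in PSGL1lo than in PSGL1hi cells of spleen (187 against 398 CPM), lay at 38.8 and 43.1 CPM in liver, and was 1020 and 811 CPM in lung. The myeloid sum was thus lower in spleen PSGL1lo cells, where Abca1 was higher. The lung sums overlapped between the fractions, at 816 and 1230 CPM in PSGL1lo and 724 and 899 CPM in PSGL1hi libraries. Of the 14 markers, 1 rose and 0 fell in lung PSGL1lo cells. The part of myeloid RNA in the exporter differences was not tested.

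Whether the fraction difference itself changed between tissues was tested as a difference of differences. The PSGL1lo effect was more negative in lung than in spleen for 6 of the 32 genes and more positive for 1, against 11.1% and 5.51% of all genes. The 6 were Cyp51 (-0.61 ± 0.12), Msmo1 (-0.54 ± 0.14), Srebf2 (-0.53 ± 0.12), Insig1 (-0.95 ± 0.12), Stard4 (-0.55 ± 0.12) and Elovl5 (-0.36 ± 0.11), and the other was Fads2; with upper-quartile scaling the split was 5 more negative and 2 more positive. Between lung and liver, 2 genes were more negative in lung (Cyp51, -0.54 ± 0.12; Insig1, -0.67 ± 0.12) and 2 more positive (Scd2, 0.47 ± 0.11; Fads2), against 3.89% and 2.08% of all genes. Between liver and spleen, Stard4 alone passed (-0.44 ± 0.12, adjusted p = 0.033; 1 more negative and 0 more positive, against 4.20% and 2.64% of all genes).

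Several of these differences did not pass in some fits with 1 library left out. Such fits also hold fewer residual degrees of freedom. The Stard4 difference between liver and spleen passed in only 1 of 8 fits that each left out 1 library (adjusted p = 0.059 to 0.13 in the others). The Elovl5 difference between lung and spleen was likewise lost in 7 of 8 (0.059 to 0.16), Msmo1 was lost without PSGL1lo or PSGL1hi replicate 2 of spleen or PSGL1lo replicate 2 of lung (0.078, 0.11 and 0.06), and Srebf2 without PSGL1hi replicate 2 of spleen (0.075). Between lung and liver, Cyp51 was lost without PSGL1lo replicate 2 of lung (0.064) and Scd2 without PSGL1hi replicate 2 of liver (0.087) or replicate 1 of either lung fraction (0.091 each); the count of 4 came to 2 without PSGL1hi replicate 2 of liver. The Fads2 difference was lost without PSGL1lo replicate 1 or PSGL1hi replicate 2 of liver (0.075 and 0.076) against liver, and without 4 of the 8 libraries against spleen (0.05 to 0.11). The Insig1 differences passed in every such fit. Immediate early and stress genes moved with tissue and fraction in lung: their 12 markers summed to 9890 CPM (PSGL1lo) and 12600 CPM (PSGL1hi) in lung, beside 3980 to 5250 CPM in the other cGVHD groups, and 9 of 12 fell in PSGL1lo cells of lung. Their part in the lung differences of Insig1 and Cyp51 was not tested. Spleen libraries carry another series of library numbers than liver and lung libraries, so in the contrasts of effects with spleen, the tissue cannot be told apart from that series.

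PSGL1lo cells of cGVHD spleen were compared with PSGL1lo cells of GVHD-free spleen to ask how these groups differ. Only the cGVHD animals had received splenocytes, so disease cannot be told apart from that graft here. The cGVHD cells had more Abca1 and Abcg1, and less Srebf2, Fasn, Cyp51, Fdps, Tm7sf2 and Fads2. In all, 3 of the 32 genes rose and 11 fell, where 14.7% of all genes rose and 12.8% fell, and the median change was -0.25, beside 0.01 for all genes. By role, 2 of 6 mevalonate genes, 4 of 11 sterol branch genes, 1 of 4 regulators, 1 of 3 fatty acid synthesis genes and 3 of 6 desaturases and elongases fell. The total of 14 came to 9 without GVHD-free replicate 2 or without cGVHD PSGL1lo replicate 1 of spleen. The 18 proliferation markers summed to 2100 CPM in the GVHD-free group and 2570 CPM in the cGVHD group, with 5 of 18 higher and none lower. The 8 B and plasma cell markers summed to 75.0 and 20.3 CPM, with all 7 tested lower in cGVHD, and the myeloid sum was 130 and 187 CPM; their part in the results was not tested.

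**Figure D4:**
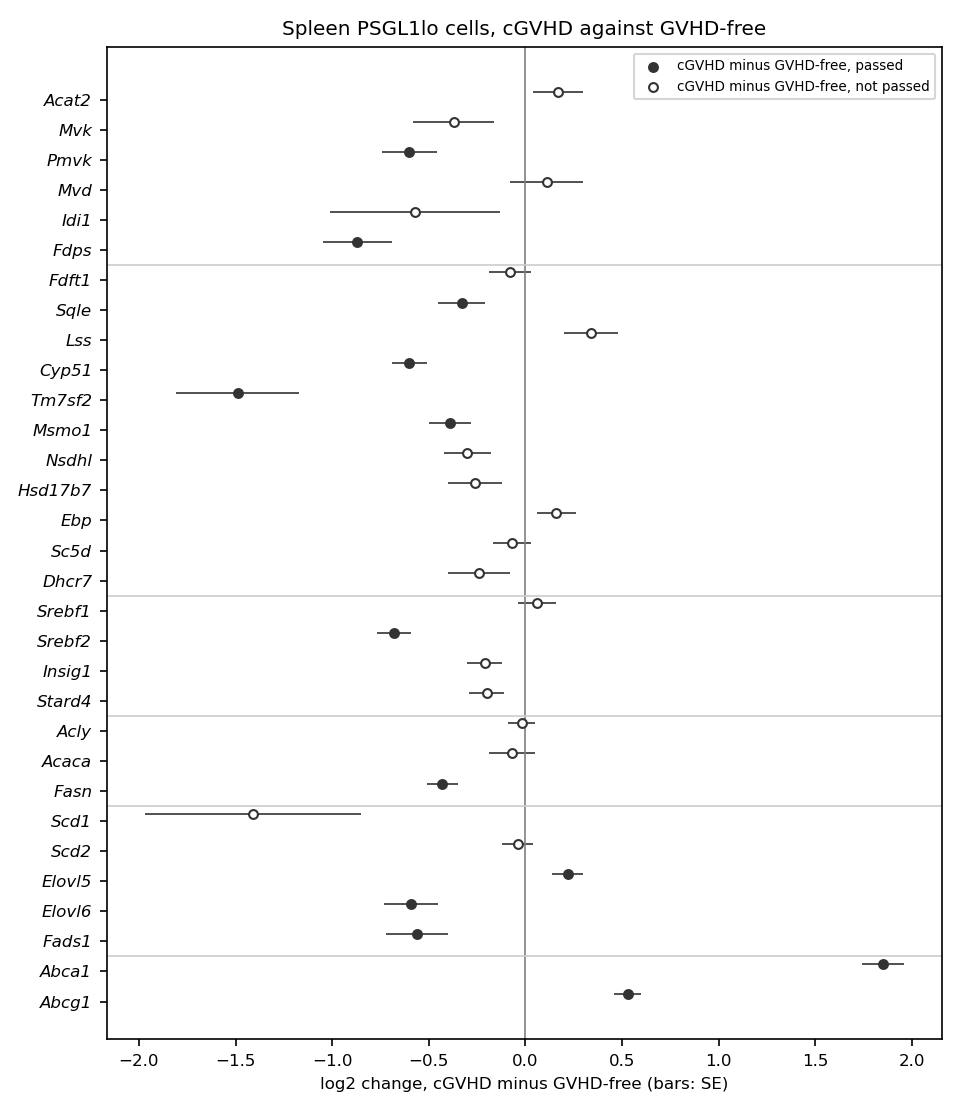
Log2 change between cGVHD and GVHD-free PSGL1lo cells of spleen (x axis) for 31 tested genes (y axis, grouped by role), with bars for the SE; filled points passed the test, and Fads2 is not drawn. Abca1 lies farthest to the right at 1.85 and Tm7sf2 farthest to the left among the genes that passed at -1.49.

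The exporter genes rose in cGVHD. Abca1 had 28.0 and 26.0 CPM in the GVHD-free libraries and 96.9 and 98.5 CPM in those of cGVHD, 3.61-fold higher (log2 1.85 ± 0.11, adjusted p = 2.8e-11). Abcg1 had 188 and 192 against 282 and 266 CPM, 1.44-fold higher (0.53 ± 0.07, adjusted p = 6.8e-06). Neither gene's groups overlapped, and both calls held with any 1 library left out. PSGL1hi cells of cGVHD spleen, at 45.1 and 44.2 CPM of Abca1, lay between these groups.

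Srebf2 fell from 152 and 142 CPM in GVHD-free to 95.8 and 88.2 CPM in cGVHD libraries (log2 -0.68 ± 0.09, adjusted p = 4.6e-06). Srebf1 had 110 and 125 against 131 and 113 CPM and did not pass (0.06 ± 0.10). Insig1 had 70.8 and 75.5 against 61.5 and 65.2 CPM (-0.21 ± 0.09, adjusted p = 0.081), and Stard4 had 50 and 42.7 against 40.9 and 39.7 CPM (-0.20 ± 0.09, adjusted p = 0.11). Among the regulators, Srebf2 alone thus passed.

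Among the synthesis enzymes, Cyp51 fell from 74.7 and 74.3 to 48.5 and 49.7 CPM (-0.60 ± 0.09, adjusted p = 1.6e-05). Fdps fell from 9.32 and 11.2 to 5.21 and 5.95 CPM (-0.87 ± 0.18, adjusted p = 0.001). Tm7sf2 fell from 4.81 and 7.23 to 2.31 and 1.96 CPM (-1.49 ± 0.32, adjusted p = 0.0013); its gene overlaps Vps51 in RefSeq, so its reads may be shared. Pmvk went from 21.9 and 25.9 to 13.6 and 17.7 CPM (-0.60 ± 0.14, adjusted p = 0.002), and its call was lost without GVHD-free replicate 2 (0.052) or cGVHD PSGL1lo replicate 1 (0.068). Msmo1 fell by 0.39 and was lost without the same libraries (0.071 and 0.11), and Sqle, at 21.9 and 20.2 against 17.2 and 16.4 CPM, fell by 0.33 (adjusted p = 0.038) and was lost without any 1 of the 4 libraries (0.068 to 0.24). Mvk had 9.08 and 9.45 against 6.63 and 7.65 CPM, Mvd 6.70 and 8.24 against 8.49 and 7.65 CPM, and Hsd17b7 14.7 and 12.8 against 11 and 12.0 CPM; none of the 3 passed.

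Fasn fell from 354 and 364 to 290 and 242 CPM (-0.43 ± 0.08, adjusted p = 0.00033), while Acly, at 367 and 365 against 367 and 353 CPM, and Acaca, at 28.9 and 29.6 against 29.6 and 26.3 CPM, did not pass. Elovl6 went from 21.7 and 24.1 to 13.9 and 16.4 CPM (-0.59 ± 0.14, adjusted p = 0.0036), and was lost without GVHD-free replicate 2 (0.051) or cGVHD PSGL1lo replicate 1 (0.07). Fads2 counts were 74 and 39 in GVHD-free against 1 and 5 in cGVHD libraries (adjusted p = 3.4e-05). Fads1 fell by 0.56, a call lost without GVHD-free replicate 2 (0.13) or cGVHD PSGL1lo replicate 2 (0.17), and Elovl5 rose by 0.22 (adjusted p = 0.046) and was not called without GVHD-free replicate 2, cGVHD PSGL1lo replicate 1 or cGVHD PSGL1lo replicate 2 (0.34, 0.15 and 0.14), nor with upper-quartile scaling (0.06), limma-voom (0.05) or the replicate number as a block (0.05). Scd2 had 203 and 207 against 201 and 196 CPM (-0.04 ± 0.08), and Scd1 1.95 and 1.93 against 0.521 and 0.915 CPM (-1.41 ± 0.56, adjusted p = 0.07).

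Lung and liver cells of the same fraction, whose libraries share a number series, were compared next. In PSGL1lo cells, 5 genes were higher and 10 lower in lung, where 19.6% of all genes were higher and 20.4% lower, and in PSGL1hi cells 7 were higher and 5 lower, against 20.1% and 18.3%. The medians were -0.16 and -0.06, beside 0.00 for all genes in both. The shares thus lie near the background except for the 31.2% lower in PSGL1lo cells, and the count of 15 in that fraction came to 9 when the fit held only these groups. Acat2, Lss, Dhcr7 and Fasn were lower and Scd1, Elovl5 and Abca1 higher in lung in both fractions. Proliferation markers fell with the lower genes: 18 of 18 fell in lung PSGL1lo cells (1000 against 1660 CPM summed) and 9 of 18 in lung PSGL1hi cells (2140 against 2420 CPM). Of the 12 immediate early and stress markers, 8 rose and 2 fell in lung PSGL1lo cells, and 11 rose in lung PSGL1hi cells. The part of either in these differences was not tested.

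**Figure D5:**
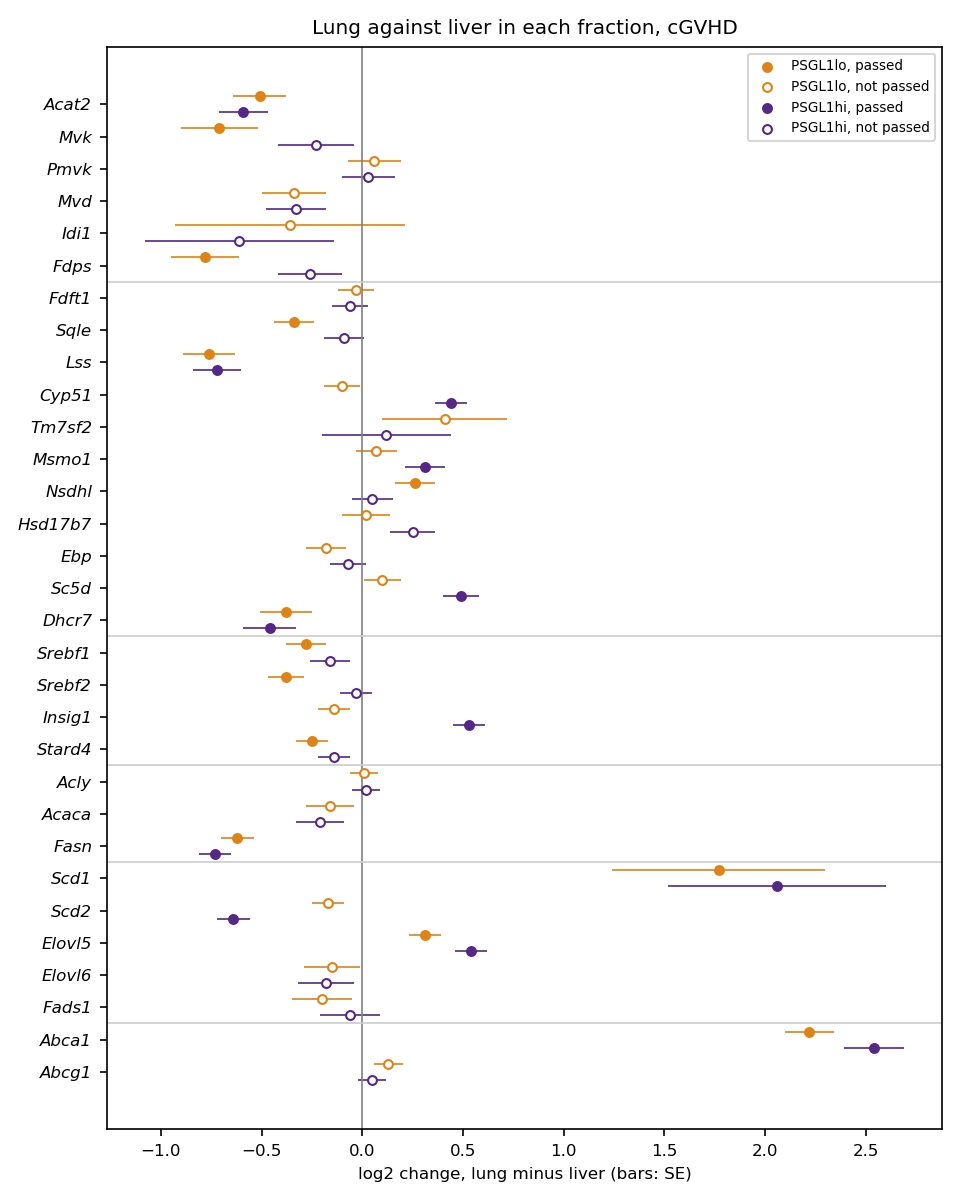
Log2 change between lung and liver (x axis) in PSGL1lo and PSGL1hi cells of cGVHD recipients for 31 tested genes (y axis, grouped by role), with bars for the SE; filled points passed the test, and Fads2 is not drawn. Abca1 lies at 2.22 and 2.54 in the 2 fractions, while Cyp51, Msmo1, Sc5d and Insig1 lie right of 0 and passed in PSGL1hi cells only.

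Abca1 was 4.66-fold higher in lung than in liver PSGL1lo cells (36.4 and 36.7 against 6.79 and 9.10 CPM; log2 2.22 ± 0.12, adjusted p = 5e-12) and 5.82-fold higher in PSGL1hi cells (14.4 and 15.0 against 2.20 and 2.79 CPM; 2.54 ± 0.15, adjusted p = 1.5e-11). Abcg1 did not pass in either fraction (0.13 ± 0.07 and 0.05 ± 0.07). Myeloid markers moved the same way as Abca1: their summed CPM was 816 and 1230 in the lung PSGL1lo libraries against 52.2 and 25.5 in liver, and 724 and 899 against 50.5 and 35.7 in PSGL1hi libraries, with 11 of 14 higher in lung in each fraction. Hepatocyte markers, with 9 in the table, summed to 51.3 and 21.2 CPM in liver PSGL1lo and PSGL1hi cells and to 0.177 and 0.302 CPM in lung. Lung epithelium markers summed to 35.3 and 115 CPM in the 2 lung PSGL1lo libraries, and to 73.8 and 63.5 CPM in the lung PSGL1hi libraries. In liver they summed to 36.7 and 32.3 CPM (PSGL1lo) and 44.8 and 45 CPM (PSGL1hi), so 1 lung PSGL1lo library was not above liver. Scgb1a1 alone gave 1.99 and 78.6 CPM of the lung PSGL1lo sums, and Epcam and Napsa of this list were counted in every group. The part of these other cells in the tissue differences was not tested.

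Fasn had 202 and 206 CPM in liver and 134 and 131 CPM in lung PSGL1lo libraries, and 223 and 235 against 138 and 138 CPM in PSGL1hi libraries. It was 1.54-fold and 1.66-fold lower in lung (-0.62 ± 0.08 and -0.73 ± 0.08; adjusted p = 3.8e-06 and 3.7e-07). Scd1 had 0.659 and 0.253 against 0.933 and 2.37 CPM in PSGL1lo, and 0.629 and 0.326 against 1.86 and 2.08 CPM in PSGL1hi libraries, higher in lung (1.77 ± 0.53 and 2.06 ± 0.54). Scd1 lost the PSGL1lo call without PSGL1lo replicate 2 of liver (adjusted p = 0.067) or of lung (0.27), and the PSGL1hi call without PSGL1hi replicate 2 of liver (0.085). Scd2 was lower in lung PSGL1hi cells (-0.64 ± 0.08, adjusted p = 1.7e-06) and did not pass in PSGL1lo cells (-0.17 ± 0.08). Elovl5 was higher in lung in both fractions (0.31 ± 0.08 and 0.54 ± 0.08). Fads2, at 0 counts in both liver PSGL1lo libraries, was at least 6.38-fold higher in lung PSGL1lo cells, with 3 counts per liver library in place of 0.

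The sterol genes split by fraction between these tissues. In PSGL1hi cells, Cyp51 (0.44 ± 0.08), Sc5d (0.49 ± 0.09), Msmo1 (0.31 ± 0.10) and Insig1 (0.53 ± 0.08) were higher in lung, with 70.0 CPM or less of Cyp51 in liver and 94.3 CPM or more in lung. In PSGL1lo cells the same 4 genes differed by -0.10 ± 0.09, 0.10 ± 0.09, 0.07 ± 0.10 and -0.14 ± 0.08, and Srebf2 was lower in lung (-0.38 ± 0.09, adjusted p = 0.0014), as was Fdps (-0.78 ± 0.17, adjusted p = 0.00092). The tests of the difference between fractions are those given above for the effect in lung against liver, and of these genes only Cyp51 and Insig1 passed. Lss was lower in lung in both fractions (-0.76 ± 0.13 and -0.72 ± 0.12), as was Acat2 (-0.51 ± 0.13 and -0.59 ± 0.12). Msmo1 was lost without PSGL1hi replicate 2 of liver or replicate 1 or 2 of lung (adjusted p = 0.14, 0.05 and 0.098).

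Smaller tissue calls were less firm. In PSGL1lo cells, Mvk (-0.71 ± 0.19) was lost without PSGL1lo replicate 1 of liver (adjusted p = 0.20) or replicate 2 of lung (0.099), Sqle (-0.34 ± 0.10) without replicate 1 of lung (0.13), and Stard4 (-0.25 ± 0.08) without replicate 2 of liver or of lung (0.12 and 0.17). Srebf1 (-0.28 ± 0.10) was lost without replicate 1 of liver or either lung library (0.24, 0.051 and 0.13), Nsdhl (0.26 ± 0.10) without replicate 1 of liver or of lung (0.20 and 0.30), and Dhcr7 (-0.38 ± 0.13) without replicate 1 of liver or either lung library (0.075, 0.12 and 0.067). In PSGL1hi cells Dhcr7 (-0.46 ± 0.13) was lost without replicate 2 of liver or replicate 1 of lung (0.097 and 0.09). All of these kept their direction.

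Liver and lung were also set against spleen within each fraction. In these comparisons tissue cannot be told apart from the series of library numbers. Between liver and spleen, 11 genes were higher and 9 lower in PSGL1lo cells, where 28.7% of all genes were higher and 29.0% lower, and 10 were higher and 9 lower in PSGL1hi cells, against 28.5% and 29.4%. Between lung and spleen, 9 were higher and 10 lower in PSGL1lo cells, against 29.6% and 30.4% of all genes, and 13 were higher and 12 lower in PSGL1hi cells, against 30.7% and 31.0%. The shares of the 32 genes are thus near those of all genes in most of these comparisons, and the roles moved in different directions.

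The sterol branch was mostly higher in liver and lung: of 11 genes, 6 rose and 0 fell in liver PSGL1lo cells, 7 rose and 1 fell in liver PSGL1hi cells, 6 rose and 1 fell in lung PSGL1lo cells, and 8 rose and 2 fell in lung PSGL1hi cells. Dhcr7 had 14.3 to 27.4 CPM over the 6 spleen libraries, 53.2 to 58.2 CPM in liver and 38.4 to 42.6 CPM in lung. Nsdhl had 16.9 to 22.5 CPM in spleen, 33.2 to 44.5 CPM in liver and 39.2 to 46.9 CPM in lung. Srebf2 was higher than in spleen by 1.35 ± 0.09 and 1.53 ± 0.09 on the log2 scale in liver PSGL1lo and PSGL1hi cells, and by 0.97 ± 0.09 and 1.5 ± 0.09 in lung. Its levels were separate between the tissues, at 88.2 to 152 CPM in spleen and 177 to 313 CPM in liver and lung.

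The exporters and Fasn were lower outside the spleen. Abca1 differed from spleen by -3.64 ± 0.12 in liver PSGL1lo cells and -4.14 ± 0.14 in liver PSGL1hi cells, and by -1.42 ± 0.11 and -1.60 ± 0.11 in lung. Abcg1 differed by -1.36 ± 0.07 and -1.26 ± 0.07 in liver and by -1.22 ± 0.07 in each lung fraction. Fasn differed by -1.0 ± 0.08 and -0.94 ± 0.08 in lung PSGL1lo and PSGL1hi cells and by -0.38 ± 0.08 in liver PSGL1lo cells. In liver PSGL1hi cells Fasn differed by -0.21 ± 0.08 (adjusted p = 0.035), a call lost without PSGL1hi replicate 1 of spleen (-0.11, adjusted p = 0.31) or PSGL1hi replicate 1 or 2 of liver (0.20 and 0.067). Myeloid markers were lower in liver than in spleen together with Abca1 and Abcg1, with 10 of 14 lower in PSGL1lo cells (38.8 against 187 CPM summed) and 12 of 14 in PSGL1hi cells (43.1 against 398 CPM), while 5 of 6 T cell identity genes were higher in each fraction. In lung the myeloid sums, at 1020 and 811 CPM, were above those of spleen. Lyz2 alone gave 799 and 630 CPM of these lung sums. Of the 14 myeloid markers, 5 were higher and 4 lower in lung PSGL1lo cells, and 4 higher and 7 lower in lung PSGL1hi cells. The part of myeloid RNA in the exporter levels was not tested. Over the 7 groups, the order of Abca1 from high to low was cGVHD spleen PSGL1lo, spleen PSGL1hi, lung PSGL1lo, GVHD-free spleen PSGL1lo, lung PSGL1hi, liver PSGL1lo and liver PSGL1hi, and the libraries of neighbouring groups did not overlap.

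Further genes of the pathways were read from lists put together by function, 59 genes in all, without leaving out single libraries. Of 10 further sterol synthesis and control genes, 1 rose and 3 fell in PSGL1lo cells of spleen, 1 and 3 in liver, and 2 and 2 in lung. Of all genes, 15.8% rose and 16.7% fell in spleen, 8.50% and 12.3% in liver, and 12.9% and 20.1% in lung, beside 30% of this list that fell in spleen and in liver and 20% that fell in lung.

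Of 20 tested genes of further fatty acid synthesis and activation, 0 rose and 6 fell in PSGL1lo cells of spleen, 1 and 6 in liver, and 3 and 5 in lung, and 1 rose and 4 fell in cGVHD against GVHD-free spleen. The shares that fell were 30%, 30%, 25% and 20%, beside 16.7%, 12.3%, 20.1% and 12.8% of all genes, and the 15% that rose in lung stood beside 12.9% of all genes, so the lung shares lie near the background. Those with the largest changes were mostly near the limit of counting: Fads3 was at 0 and 0.0653 CPM in spleen PSGL1lo against 1.31 and 1.12 CPM in PSGL1hi libraries, and was listed at 0 in liver PSGL1lo against 0.170 and 0.447 CPM in lung PSGL1lo libraries. Elovl7, an elongase, had 0.212 and 0.134 CPM in lung PSGL1lo against 1.56 and 1.53 CPM in lung PSGL1hi libraries, and Fads6 had 2.66 and 1.98 CPM in liver PSGL1lo against 0.809 and 0.834 CPM in liver PSGL1hi libraries. Acsl3, an acyl-CoA synthetase, fell from 10.7 and 12.8 CPM in GVHD-free to 3.43 and 2.09 CPM in cGVHD spleen PSGL1lo libraries (-2.10 ± 0.34, adjusted p = 6.3e-05).

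Of 17 tested genes of sterol uptake, storage and oxysterols, 0 rose and 6 fell in PSGL1lo cells of spleen, 0 and 3 in liver, and 1 and 4 in lung, and 3 rose and 3 fell with cGVHD. The shares that fell were 35.3%, 17.6%, 23.5% and 17.6%, beside 16.7%, 12.3%, 20.1% and 12.8% of all genes, and the 17.6% that rose with cGVHD stood beside 14.7%; those of lung and of cGVHD lie near the background. Pltp, the phospholipid transfer protein, had 4.69 and 3.20 CPM in PSGL1lo against 15.3 and 12.7 CPM in PSGL1hi libraries of spleen (-1.83 ± 0.26, adjusted p = 1e-05). In liver it had 4.18 and 3.58 against 10.8 and 11.4 CPM (-1.5 ± 0.24, adjusted p = 7e-05). Pltp, named here for the largest change in its list, was thus lower in PSGL1lo cells of both tissues. In lung Pltp had 4.28 and 6.21 CPM in PSGL1lo against 8.69 and 14.5 CPM in PSGL1hi libraries. The myeloid sum was lower with it in spleen (187 against 398 CPM, 8 of 14 markers lower) and was 38.8 against 43.1 CPM in liver (1 of 14 lower); its part in the Pltp difference was not tested. Soat2, which esterifies cholesterol for storage, was lower in lung PSGL1lo cells (3.35 and 4.29 against 8.73 and 8.78 CPM; -1.20 ± 0.18, adjusted p = 1.7e-05). Cyp27a1, which makes an oxysterol, fell from 4.81 and 3.37 CPM in GVHD-free to 0.596 and 0.980 CPM in cGVHD PSGL1lo libraries (-2.36 ± 0.60, adjusted p = 0.0048). Lrp1, an endocytic receptor that macrophages also express, was higher in lung than in liver in both fractions (4.27 ± 0.20 and 3.44 ± 0.20), beside the myeloid sums given above.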

How the data were processed

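Whole-number counts per gene in 14 libraries were deposited by the authors in 1 table. Per the submitters' processing notes, TopHat2 2.0.8, HTSeq and the mm9 build were used; the sources used here give neither the annotation nor the strand setting, so genes that overlap another annotated gene (15 of the 33 in RefSeq, 10 with a gene of the table) may share reads. Per the labels' protocols, a Qiagen RNeasy kit gave the RNA and a Kapa mRNA HyperPrep kit the libraries. Library totals were 13222005 to 33532595 counts, and 3 counts, taken as the detection floor for counting error only, equal 0.0859 to 0.223 CPM. Counts were filtered with filterByExpr (minimum count 10), scaled by TMM and fitted with edgeR 4.0.16 (limma 3.58.1, R 4.3.3). The fit held 1 mean per group over all 14 libraries, with 7 residual degrees of freedom and Benjamini-Hochberg adjustment over 13780 genes. The common coefficient of variation between libraries of a group, beyond counting error, was 7.35% and may be technical. SE is the absolute log2 change divided by the square root of the F statistic. The same code was tested on simulated counts.

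The chi-square between replicates, per degree of freedom, was 2.97 to 18.6, above sampling noise, so none were merged. The genes, pathway lists and marker lists were chosen with earlier results of these data known. Values in every library are given for up to 4 genes per role with the largest change among those passing in the 6 comparisons within a library series, and 1 further pathway gene per list and comparison is named by the largest change, except for the list of further sterol synthesis genes, where that result is not reported here. Alternatives were DESeq2 scaling and its Wald test (DESeq2 1.42.0), upper-quartile scaling, no filter, limma-voom, a replicate block, a fit with only the groups compared, and each library left out. Promoters come from RefSeq on GRCm38.p6, not the build of the counts, and were matched by symbol.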

Additional observations from a re-analysis of the deposited data

Results flagged for a closer look

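The differences below were flagged because the PSGL1lo minus PSGL1hi log2 change of a gene differed between 2 tissues by the interaction test of edgeR, adjusted over all genes. Between lung and liver, the effect in lung minus that in liver was -0.54 ± 0.12 for Cyp51, -0.67 ± 0.12 for Insig1 and 0.47 ± 0.11 for Scd2 (adjusted p = 0.0064, 0.00091 and 0.012). Cyp51 and Insig1 were therefore lower in PSGL1lo cells by more in lung, and Scd2 was higher by more in lung.

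Between lung and spleen, the difference was -0.61 ± 0.12 for Cyp51, -0.54 ± 0.14 for Msmo1, -0.53 ± 0.12 for Srebf2, -0.95 ± 0.12 for Insig1, -0.55 ± 0.12 for Stard4 and -0.36 ± 0.11 for Elovl5. Between liver and spleen it was -0.44 ± 0.12 for Stard4. Fads2 was flagged with fitted values of 6.12 (lung minus liver) and 3.04 (lung minus spleen), which depend on the prior count because liver PSGL1lo libraries had 0 counts and spleen PSGL1lo libraries 1 and 5 counts, and which measure no size. No test of these differences separates tissue from the series of library numbers where spleen is involved.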

How the results depend on the processing

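Over 13 comparisons, 182 gene calls were made. With all libraries, DESeq2 scaling lost 2 of them, upper-quartile scaling 8, no filter 5, DESeq2's Wald test 3 of 181, limma-voom 2 and the fit with only the groups compared 10 of 180, and none changed direction. Leaving out 1 library at a time lost 64 calls in at least 1 fit, again with no change of direction. The largest shift of the median of all genes by another scaling was 0.102 on the log2 scale (upper-quartile, PSGL1lo against PSGL1hi in lung).

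Over 21 pairs of groups, the correlation of same-numbered deviations was -0.06 to 0.08, which cannot exclude pairing by replicate number. The highest values, 0.07 and 0.08, were between the fractions of liver and of lung, whose labels share a letter by replicate. With the replicate number as a block, 4 of 182 calls were lost, and counts of genes passing were 14 for cGVHD against GVHD-free, 14 in spleen, 14 in liver and 17 in lung for PSGL1lo against PSGL1hi, and 15 and 12 for lung against liver.

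With 1 library left out, the counts of genes passing ranged from 9 to 13 for cGVHD against GVHD-free (14 with all libraries), from 9 to 14 for PSGL1lo against PSGL1hi in liver (15), from 2 to 4 for the effect in lung minus liver (4), from 0 to 1 for the effect in liver minus spleen (1), from 3 to 6 for genes lower in PSGL1lo cells of all 3 tissues (7) and from 1 to 3 for genes higher in all 3 (3). The last 2 counts were added after seeing the data. With only the groups compared, lung against liver in PSGL1lo cells gave 9 (15) and the effect in liver minus spleen gave 0 by edgeR (1), with 4 genes at an unadjusted p under 0.05, while DESeq2 and limma-voom each called 1. Fewer libraries and fewer residual degrees of freedom enter these fits. Hmgcs1, under the floor of 3 counts in every library, cannot be compared. Whether its values reflect low expression or the annotation and counting used cannot be told here. Fads2, at or near the floor in PSGL1lo cells of spleen and liver, has tests and lower bounds there but no measured size.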
